A study of Mus musculus with 4 samples.

Results

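The ID proteins, the inhibitory Smads, the decoy receptor Bambi and the TGF-beta ligands were followed in NIH-3T3:Per2-Luc, a mouse fibroblast line with a *Per2* promoter-driven luciferase, on 4 one-color Agilent arrays. The members were all non-control probes whose gene name on the array was *Id1*, *Id2*, *Id3*, *Id4*, *Smad6*, *Smad7*, *Bambi*, *Tgfb1*, *Tgfb2* or *Tgfb3*. This gave 11 of the 39429 probes on the array for the 10 genes, with 4 probes for the ID genes, 3 for the inhibitors and 4 for the ligands. There was 1 array for the control, which received 0 mM H2O2 and fresh medium and is labelled 4 h, and 1 array per time for cells collected 4 h, 20 h or 32 h following a cOS-pulse, the study's name for critical oxidative stress by 5 mM H2O2 for 10 min. All 4 cultures carried the luciferase reporter. Every time point was compared with the same control array, so at 20 h and 32 h an effect of the pulse and an effect of the hours since the change of medium cannot be told apart. With 1 array per condition there is no test of any difference. The error printed with a value is that of the scanner software for the spot, and it does not cover differences between cultures.

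ID proteins are helix-loop-helix proteins without a DNA-binding region. They pair with the E proteins (*Tcf3*, *Tcf4* and *Tcf12*) and keep them and their partners from binding DNA, and in fibroblasts they are known as genes that serum and bone morphogenetic proteins (BMPs) switch on. BMPs and TGF-beta bind receptor kinases that phosphorylate Smads, which enter the nucleus. *Smad6* and *Smad7* encode the inhibitory Smads, which are switched on by the pathway and block it at the receptor, and *Bambi* encodes a receptor-like protein without a kinase that also dampens it.

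RefSeq promoter windows (GRCm38.p6) were used for 6 of the 10 genes. The 250 bases before the annotated start were searched on both strands for 6 motifs, none of which contains another. No window of *Id1*, *Smad7*, *Bambi* or *Tgfb3* was searched, so their motifs are not known from this search. Of the 32536 distinct windows of all genes, 9.65% held GGCGCC, a GC-rich element known from BMP-responsive genes. The palindromic Smad element GTCTAGAC was in 0.169% of them and the short Smad element CAGAC in 42.2%. The E-box CACGTG, which clock proteins can bind, was in 6.04%. The cyclic AMP element TGACGTCA was in 1.56% and the TATA box TATAAA in 12.3%. The windows with a match are shown here, since these genes were among those with lower signal at 20 h, with every match in capitals: *Id2* (chr12:25096093-25096342, minus strand), *Id3* (chr4:136143572-136143821, plus strand), *Id4* (chr13:48260866-48261115, plus strand) and *Tgfb2* (chr1:186705990-186706239, minus strand).
Id2: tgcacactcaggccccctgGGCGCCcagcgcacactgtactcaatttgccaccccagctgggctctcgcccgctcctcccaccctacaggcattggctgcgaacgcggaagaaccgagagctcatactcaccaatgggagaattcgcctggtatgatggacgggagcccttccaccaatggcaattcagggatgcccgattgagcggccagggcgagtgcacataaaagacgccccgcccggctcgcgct
Id3: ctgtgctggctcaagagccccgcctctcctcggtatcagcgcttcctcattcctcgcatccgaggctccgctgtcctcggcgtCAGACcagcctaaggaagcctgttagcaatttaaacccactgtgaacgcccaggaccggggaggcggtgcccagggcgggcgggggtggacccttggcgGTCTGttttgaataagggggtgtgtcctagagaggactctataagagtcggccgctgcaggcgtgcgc
Id4: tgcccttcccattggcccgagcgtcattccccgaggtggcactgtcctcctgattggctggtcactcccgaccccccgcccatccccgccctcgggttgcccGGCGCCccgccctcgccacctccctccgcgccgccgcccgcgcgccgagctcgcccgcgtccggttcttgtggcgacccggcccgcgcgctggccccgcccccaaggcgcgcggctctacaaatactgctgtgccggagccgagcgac
Tgfb2: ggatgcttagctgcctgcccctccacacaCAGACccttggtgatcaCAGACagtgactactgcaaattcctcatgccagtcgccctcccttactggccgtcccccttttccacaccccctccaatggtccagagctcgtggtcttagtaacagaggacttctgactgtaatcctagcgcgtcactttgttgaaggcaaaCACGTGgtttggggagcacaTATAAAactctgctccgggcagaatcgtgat
*Id2* and *Id4* each held 1 GGCGCC, whose first base lay at -231 and -148 from the start. *Id3* held 2 CAGAC, at -167 and -68. *Tgfb2* held 2 CAGAC, at -221 and -204, an E-box at -51 and a TATA box at -31. *Smad6* and *Tgfb1* held none of the 6 motifs. The *Id3* and *Id2* windows had a GC content of 62.8%, *Id4* 75.6% and *Tgfb2* 53.6%, against a median of 52.4% over all windows. A match is only a description of these letters.

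The array as a whole was as follows. Between 20762 and 23295 probes per array (52.7% to 59.1%) were detected, that is, marked by the scanner software as well above background, no spot was saturated, and no member spot was marked as an outlier. All 10 fibroblast markers (*Col1a1*, *Col1a2*, *Col3a1*, *Col5a1*, *Thy1*, *Pdgfra*, *Pdgfrb*, *Vim*, *S100a4* and *Dcn*) were detected on all 4 arrays. Their summed scaled signal lay between 839 and 987, and 2 of them were at least 2-fold lower at 4 h, 3 at 20 h and 0 at 32 h. *Ptprc* and *Emr1* of the blood list, *Epcam*, *Cdh1* and *Krt18* of the epithelial list and *Tek* of the endothelial list were detected on none. By their brightest probes, *Csf1r*, *Cd68*, *Krt8* and *Pecam1* of these lists were detected on all 4 arrays and *Cdh5* on 3. At 4 h *Cd68* was 4.23-fold, *Cdh5* 3.65-fold, *Krt8* 2.25-fold, *Pecam1* 1.63-fold and *Csf1r* 1.21-fold above the control. The summed scaled signal of the 4 blood markers was 1.56 in the control, 3.1 at 4 h, 1.43 at 20 h and 1.63 at 32 h. That of the 4 epithelial markers was 0.569, 1.24, 0.721 and 0.687, and that of the 3 endothelial markers 0.15, 0.353, 0.185 and 0.141. All 3 sums were highest at 4 h, as was the fibroblast sum (971, 987, 839 and 923 in the same order). Most fibroblast markers were nevertheless lower at 4 h than in the control, with a median log2 ratio of -0.44 over the 10. Only *Dcn* (0.30) and *S100a4* (0.053 with its brightest probe), the markers with the highest signal, were above 0. The part of these lists in the results was not tested. In such bulk RNA, fewer cells with a transcript and less of it per cell cannot be told apart.

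At 4 h the members lay on both sides of the control, from *Smad6* at the low end to *Id2* at the high end, and at 20 h and 32 h their ratios were below 0, that of *Tgfb1* only with some scalings. Ratios could be taken for 10 of the 11 probes, since *Bambi* was detected on none. At 4 h, 0 member probes exceeded the control by 2-fold or more, where 6.77% of all probes were, and 3 were at least 2-fold lower (*Id4*, *Smad6* and *Tgfb3*), where 4.94% of all probes were. At 20 h, 0 were higher, against 0.763% of all probes, and 7 probes of 6 genes were lower (*Id1*, *Id3*, *Id4*, *Smad6*, *Smad7* and both probes of *Tgfb2*), against 1.87%. At 32 h, 0 were higher, against 1.15%, and 7 were lower (*Id1*, *Id2*, *Id3*, *Id4*, *Smad6*, *Smad7* and 1 probe of *Tgfb2*), against 1.43%. These shares are over all probes, including those detected on neither array, which could not be called. Of the member probes, 10 of 11 gave a ratio. The counts at 20 h and 32 h rest on 6 probes that were lower at both times, and both use the same control array. Of the 7 probes at 20 h, 4 were at least 2-fold lower without scaling between the arrays (*Id1*, *Id3*, *Id4* and 1 probe of *Tgfb2*). Of the 3 at 4 h, *Id4* was under 2-fold with the normexp background correction. The median log2 ratio over the members with a measured ratio was -0.14 at 4 h (10 probes), -1.33 at 20 h (10 probes) and -1.23 at 32 h (9 probes). Over all probes with a measured ratio it was 0.17, -0.0034 and -0.0062.

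**Figure D1:**
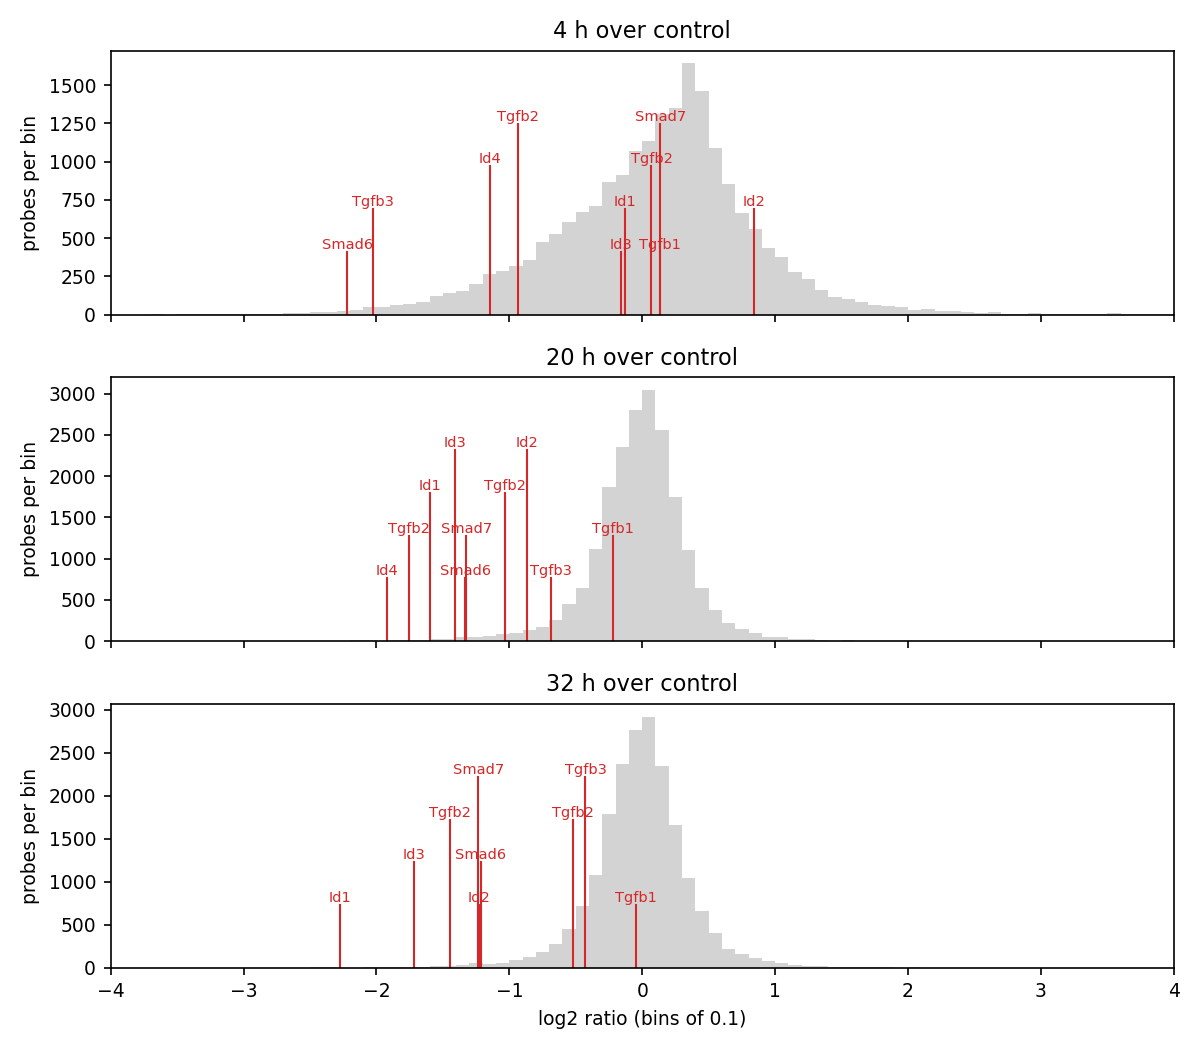
Number of probes (vertical axis) per bin of the log2 ratio over the control (horizontal axis) at 4 h, 20 h and 32 h, for all probes detected on both arrays (grey), with the member probes as labelled red lines whose height has no meaning. Probes beyond the ends of the axis are not drawn. At 20 h all 10 member lines and at 32 h all 9 lie left of 0, that of *Tgfb1* only with some scalings, while the medians of all probes are -0.0034 and -0.0062.

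Levels are given on 1 scale throughout, the log2 signal of the probe minus the 75th percentile of its array. They can be compared between arrays for 1 probe, not between probes.

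*Id1*, the best known BMP target of the family, had a level of 2.77 in the control, 2.64 at 4 h, 1.17 at 20 h and 0.49 at 32 h. On this scale the control and 4 h differed by less than the spot error, and both later arrays were lower. Under the 5 scaling alternatives the log2 ratio at 4 h lay between -0.53 and -0.26, which is past the spot error. The log2 ratio over the control was -0.13 ± 0.20 at 4 h, -1.60 ± 0.20 at 20 h and -2.28 ± 0.20 at 32 h, which is a 4.84-fold lower signal. Of the 19969 probes with a measured ratio at 32 h, 0.12% had a lower one. *Id1* was also the member with the largest measured difference between the late arrays, with a log2 ratio of 0.68 ± 0.20 for 20 h over 32 h, which is 1.60-fold. The probe lies on chromosome 2, 152563083 to 152563142 (array annotation, mm9).

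*Id3*, which encodes a close relative of Id1, had levels of 2.91 in the control, 2.75 at 4 h, 1.5 at 20 h and 1.19 at 32 h. As for *Id1*, the first pair of arrays was within the spot error on this scale and the later pair was below it. Under the 5 scaling alternatives the log2 ratio at 4 h lay between -0.56 and -0.28, again past the spot error. The log2 ratios over the control were -0.16 ± 0.20, -1.41 ± 0.20 and -1.72 ± 0.20 at 4 h, 20 h and 32 h. The late arrays differed by 0.31 ± 0.20, 1.51 times the spot error. The annotation places the *Id3* probe over chromosome 4, 135700075 to 135700249, a span longer than the probe.

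*Id2*, which encodes a regulator of differentiation in many lineages and is the ID gene with a described link to the clock, was above the control at 4 h. Its level was 1.49 in the control, 2.33 at 4 h, 0.63 at 20 h and 0.27 at 32 h, so that the 4 h array was the highest and the 32 h array the lowest. The log2 ratio at 4 h was 0.84 ± 0.20, below the 2-fold threshold, and 87.6% of the probes with a measured ratio had a lower one. At 20 h and 32 h the log2 ratios were -0.86 ± 0.20 and -1.23 ± 0.20. From 4 h to 20 h the signal was 3.26-fold lower. The probe lies on chromosome 12, 25778904 to 25778963.

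*Id4*, an ID gene best known from neural development, had a level of -1.98 in the control, -3.13 at 4 h and -3.90 at 20 h, and at 32 h it was not well above background, at -4.41. Each array in this order was thus lower than the one before. The log2 ratio was -1.14 ± 0.24 at 4 h and -1.92 ± 0.27 at 20 h. At 32 h the control was at least 5.38-fold higher, taken against the undetected 32 h signal itself. With the normexp background correction the log2 ratio was -1.37 at 20 h and the bound at 32 h was -1.33. The size of the late difference thus depends on the background correction. The probe lies on chromosome 13, 48358668 to 48358727.

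Of the 4 ID probes, 1 was at least 2-fold lower at 4 h, 3 at 20 h and 4 at 32 h, against 4.94%, 1.87% and 1.43% of all probes. Between the late arrays, *Id1*, *Id2* and *Id3* were higher at 20 h than at 32 h by 0.31 to 0.68 on the log2 scale, below the 2-fold threshold. *Id4*, which of these arrays only the 20 h one detected, was at least 1.42-fold higher there, a bound that did not hold with normexp. The difference of *Id2* was 0.36 ± 0.21. Over all probes, detected or not, 1.56% differed at least 2-fold between 20 h and 32 h, and 0 of the 11 member probes did.

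**Figure D2:**
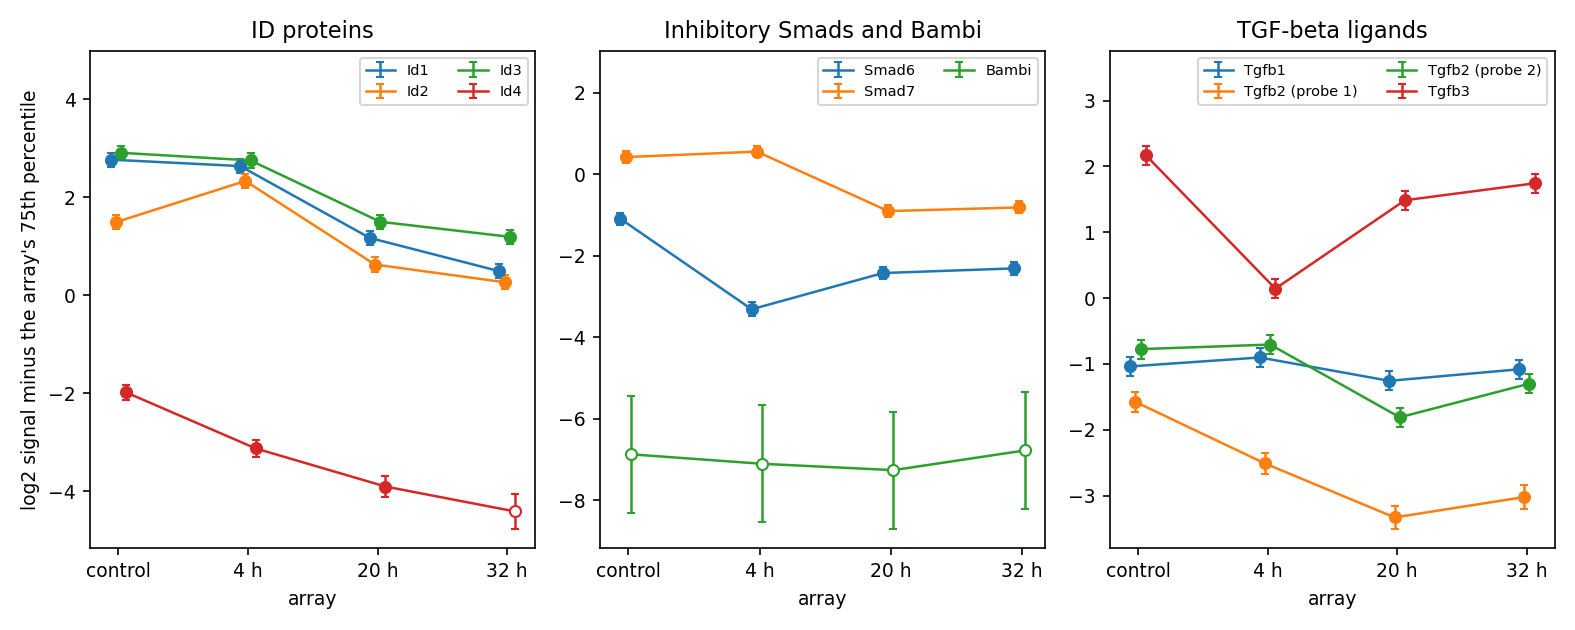
Scaled log2 signal of each probe (vertical axis, log2 signal minus the 75th percentile of the array) on the 4 arrays (horizontal axis), with 1 array per point and the scanner error of the spot as bars. Open points were not well above background. On this scale *Id1* and *Id3* differ by less than the spot error between the control and 4 h, but by more with other scalings. Both are lower at 20 h and 32 h. *Smad6* and *Tgfb3* are lowest at 4 h, and *Bambi* is at background throughout.

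Among the inhibitors, *Smad7* encodes the Smad that blocks TGF-beta and BMP receptors and brings ubiquitin ligases to them. Its level was 0.42 in the control, 0.56 at 4 h, -0.90 at 20 h and -0.81 at 32 h. The control and 4 h arrays formed a high pair and 20 h and 32 h a low pair. On this scale the difference within each pair was smaller than the spot error. With spike-in (-0.27) or median (-0.23) scaling, 4 h differed from the control by more than that error. The log2 ratio over the control was 0.13 ± 0.20 at 4 h, which was negative under 3 of the 5 scaling alternatives, -1.33 ± 0.21 at 20 h and -1.23 ± 0.21 at 32 h. The probe lies on chromosome 18, 75555371 to 75555430.

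*Smad6*, whose product acts mainly on BMP receptors, was lowest at 4 h. The level was -1.09 in the control, -3.31 at 4 h, -2.42 at 20 h and -2.31 at 32 h, so that the control was the highest array and the 3 pulsed arrays were all below it. The log2 ratio at 4 h was -2.22 ± 0.23, a 4.66-fold lower signal, and 0.471% of the probes with a measured ratio had a lower one. At 20 h and 32 h the log2 ratios were -1.33 ± 0.21 and -1.22 ± 0.21. The signal at 32 h was 2.005-fold that at 4 h. The 2 inhibitory Smads thus had log2 ratios of -2.22 and 0.13 at 4 h, and values at 20 h and 32 h that lay within 1 spot error of each other. The *Smad6* probe lies on chromosome 9, 63800980 to 63801039.

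*Bambi* (chromosome 18, 3516008 to 3516067) had signals of 9.48 intensity units in the control, 6.64 at 4 h, 9.12 at 20 h and 11.5 at 32 h. None of these was well above background, and no ratio was taken.

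The ligands differed from each other in their pattern. *Tgfb1*, the most widely made of the TGF-beta ligands, had levels of -1.04, -0.90, -1.26 and -1.08 on the control, 4 h, 20 h and 32 h arrays. These lay close to each other. The probe was printed in 10 spots per array, and the SD over the spots was 0.048 to 0.059. The log2 ratios over the control were 0.14 ± 0.21, -0.22 ± 0.21 and -0.044 ± 0.21. Their sign changed with the scaling, to -0.27 at 4 h with spike-in scaling, and to 0.11 at 20 h and 0.13 at 32 h without scaling. *Tgfb1* was the detected member closest to the control at 20 h and 32 h.

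*Tgfb3*, the ligand known from palate closure and from wound repair, was lowest at 4 h and stayed below the control at 20 h and 32 h. Its level was 2.17 in the control, 0.14 at 4 h, 1.49 at 20 h and 1.74 at 32 h. The 10 spots of the probe ranged from 2.12 to 2.24 in the control and from -0.0025 to 0.23 at 4 h, so that the spots of the arrays did not overlap. The log2 ratio was -2.03 ± 0.20 at 4 h, a 4.08-fold lower signal, then -0.68 ± 0.20 at 20 h and -0.43 ± 0.20 at 32 h. From 4 h to 32 h the signal was 3.03-fold higher. The probe lies on chromosome 12, 87397804 to 87397863.

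*Tgfb2*, a ligand known for its role in heart and eye development, had 2 probes whose starts lie 1799 bases apart. The probe at chromosome 1, 188447534 to 188447593, nearer the 3′ end of the transcript, had levels of -1.58 in the control, -2.51 at 4 h, -3.33 at 20 h and -3.02 at 32 h. The probe at 188449333 to 188449392 had -0.78, -0.71, -1.81 and -1.30. Both were lowest at 20 h. At 4 h the first probe had a log2 ratio of -0.94 ± 0.22 and the second 0.070 ± 0.21, a difference of -1.01 ± 0.30 between the probes. Under the 5 scaling alternatives the first value lay between -1.34 and -1.06, past 2-fold in all of them, and the second was negative in 4. At 20 h they had -1.76 ± 0.23 and -1.04 ± 0.21. The second was under 2-fold with median (-0.93), spike-in (-0.84) or no scaling (-0.70) and with normexp (-0.94). At 32 h they had -1.45 ± 0.23 and -0.52 ± 0.21.

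**Figure D3:**
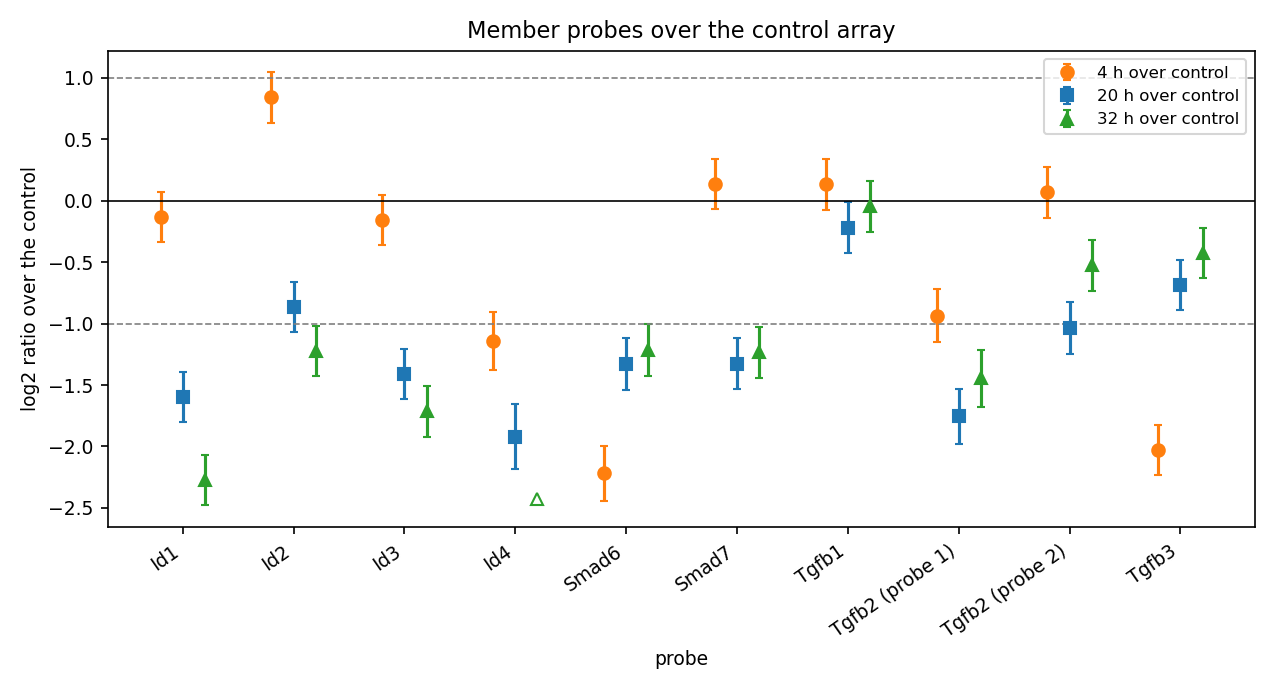
Log2 ratio over the control (vertical axis) of each detected member probe (horizontal axis; probe 1 of *Tgfb2* is the one nearer the 3′ end) at 4 h, 20 h and 32 h, from 1 array per point, with the propagated scanner error of both spots as bars. Dashed lines mark 2-fold, and the open triangle of *Id4* is a bound. The points at 20 h and 32 h lie below 0 for all 10 probes, for *Tgfb1* only with some scalings, while those at 4 h spread from -2.22 for *Smad6* to 0.84 for *Id2*.

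The scaling between the arrays did not change the direction of the late values, except for *Tgfb1*. Over the 5 scaling alternatives, the log2 ratio at 20 h lay between -1.65 and -1.27 for *Id1*, between -0.88 and -0.53 for *Id2*, between -1.46 and -1.08 for *Id3* and between -1.34 and -0.99 for *Smad7*. At 32 h that of *Id1* lay between -2.32 and -2.10. At 4 h that of *Id2* lay between 0.44 and 0.74, and that of *Smad6* between -2.62 and -2.34. With the normexp background correction that of *Smad6* at 4 h was -1.61.

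The rest of the pathway was taken from a list of 64 other genes of TGF-beta and BMP signaling, all of them on the array. With the brightest probe of each gene, 5 were at least 2-fold higher at 4 h and 6 lower, where 6.78% and 5.06% of all 30175 gene names on the array were, detected or not. At 20 h 0 were higher and 9 lower, against 0.822% and 2.0%, and at 32 h 1 was higher and 7 lower, against 1.26% and 1.55%. The median log2 ratio of the list was -0.0062 at 4 h (51 genes measured), -0.15 at 20 h (53 genes) and -0.050 at 32 h (51 genes). Those of the members were -0.14, -1.33 and -1.23. A probe at least 2-fold from the control at some time was found for 21 of the 64 genes and for 16.6% of all gene names, a share that includes names not detected on any array. Of those with the largest ratios in either direction, 18 are named here.

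Of the 12 receptor genes, *Bmpr1b* was detected on none of the arrays. *Acvr2a*, which encodes a type II receptor for activin and BMPs, had a log2 ratio of 1.80 ± 0.23 at 4 h and 0.24 ± 0.24 at 20 h. *Tgfbr1*, the type I TGF-beta receptor, had 0.81 ± 0.20 at 20 h and 0.65 ± 0.20 at 32 h with its brightest probe, and another probe, not detected in the control, was at least 2.78-fold higher at 20 h and at least 2.01-fold higher at 32 h. At 20 h and 32 h 0 of the 12 receptor genes were at least 2-fold lower by their brightest probe, near the 2.0% and 1.55% of all gene names.

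Of the receptor-regulated and common Smads, *Smad9*, which BMP receptors activate, had -1.36 ± 0.32 at 20 h, and the control was at least 3.13-fold higher than 4 h and at least 2.71-fold higher than 32 h. *Smad1* and *Smad5*, the other BMP-activated Smads, differed between their probes. *Smad5* had 1.15 ± 0.26 at 4 h with 1 probe and -0.19 ± 0.20 with the brightest. The brightest *Smad1* probe had 0.92 ± 0.21 at 4 h, -0.032 ± 0.21 at 20 h and -0.15 ± 0.22 at 32 h. Another probe detected on all 4 arrays had 0.67 ± 0.28, -0.52 ± 0.33 and -0.21 ± 0.34. The remaining probe, detected at 32 h alone, was there at least 3.81 times the control, a rise that the other probes did not show.

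Among other ligands, *Inhba*, which encodes the activin A subunit, had 1.85 ± 0.21 at 4 h, -1.21 ± 0.21 at 20 h and -0.82 ± 0.21 at 32 h. *Gdf5*, a BMP-family ligand of joints, had -2.01 ± 0.21 at 4 h with its brightest probe and -0.45 ± 0.36 with the other, and the brightest had -0.17 ± 0.21 at 20 h. *Bmp6* was detected at 32 h alone, at no less than 4.02 times the control. That value comes from the only probe of the gene, so no other probe could be set beside it. *Bmp2*, *Bmp5*, *Bmp7* and *Gdf6* were detected on no array.

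Outside the cell, *Fst*, the activin-binding follistatin, had 1.10 ± 0.20 at 4 h, and *Bmper*, a BMP-binding protein, -1.64 ± 0.21. *Ltbp2*, a matrix protein of the latent TGF-beta binding family, had -0.78 ± 0.20, -1.42 ± 0.20 and -1.26 ± 0.20 at the 3 times. *Fstl1*, a follistatin-related secreted protein, had -1.64 ± 0.20 at 20 h and -0.91 ± 0.20 at 32 h.

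Among the inhibitors inside the cell, *Pmepa1*, a TGF-beta target that sequesters Smads, had 2 probes. They had -0.10 ± 0.20 and -0.23 ± 0.21 at 4 h, -2.26 ± 0.21 and -2.30 ± 0.21 at 20 h, and -1.88 ± 0.21 and -2.07 ± 0.21 at 32 h. *Tgif1*, a Smad corepressor, had 1.58 ± 0.20 at 4 h and 0.42 ± 0.20 at 20 h. *Skil*, which encodes the corepressor SnoN, had 0.87 ± 0.21 and 1.17 ± 0.24 at 4 h with its probes, and -0.64 ± 0.21 and -0.49 ± 0.27 at 20 h.

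Of the E proteins that ID proteins bind, *Tcf4* had -1.18 ± 0.20 and -1.37 ± 0.33 at 4 h, then 0.068 ± 0.20 and -0.075 ± 0.25 at 20 h. The brightest probes of *Tcf3* and *Tcf12* had -0.65 ± 0.20 and 0.044 ± 0.20 at 4 h, and -0.15 ± 0.20 and 0.047 ± 0.20 at 20 h. At 20 h and 32 h 0 of these 3 genes were at least 2-fold from the control by their brightest probes. Of all gene names, 0.822% were higher and 2.0% lower at 20 h, and 1.26% and 1.55% at 32 h. For so few genes, 0 lies near these shares.

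Among the target genes, *Atoh8*, a BMP-responsive helix-loop-helix gene, had -1.73 ± 0.22, -1.44 ± 0.21 and -1.90 ± 0.23 at the 3 times. *Ctgf*, a matrix-associated protein with several known inputs, had -4.22 ± 0.28 at 4 h, -2.96 ± 0.22 at 20 h and -3.22 ± 0.23 at 32 h.

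**Figure D4:**
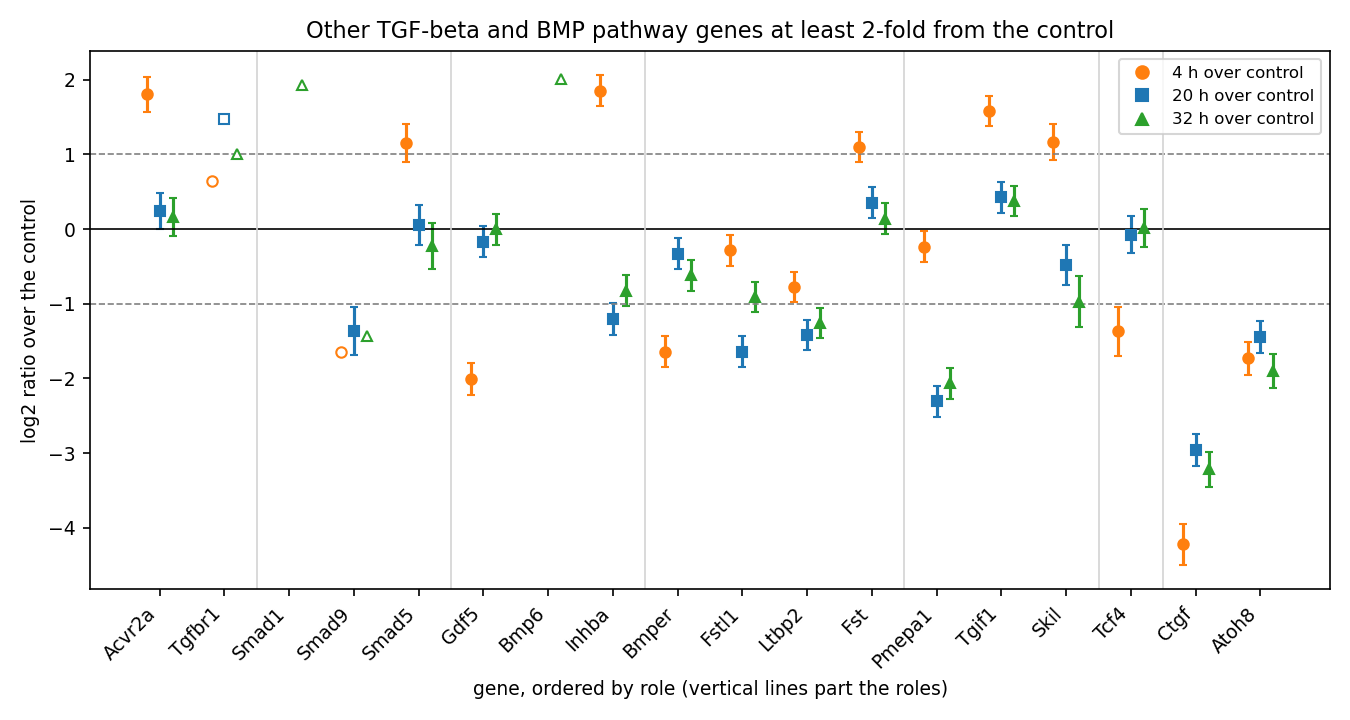
Log2 ratio over the control (vertical axis) for the 18 named pathway genes (horizontal axis, ordered by role from receptors to targets), for the probe with the largest ratio in either direction, at 4 h, 20 h and 32 h. Each point is 1 array over 1 control array, bars are the propagated scanner error, open points are bounds, and dashed lines mark 2-fold. *Pmepa1* is near 0 at 4 h and below -1 at 20 h and 32 h, whereas *Tcf4* and *Gdf5* are low at 4 h only.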

How the data were processed

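Total RNA of 4 cultures was hybridized to 4 arrays of 1 slide (Mouse GE 4x44K v2). The authors deposited spot intensities from Agilent Feature Extraction 10.7.3.1, corrected for background and spatial trend by that software, and a table of these intensities divided by 1 constant per array. The flags of the scanner software were deposited as well and are scored 0 or 1. From the intensities, log2 values were averaged over the spots of a probe without outlier flags, and the 75th percentile of the array over 39429 probes was subtracted. Detection needed the well-above-background flag on 50% or more of the spots. Where 1 array of a pair detected it, the ratio is a bound, taken against the lowest detected signal of the dim array or the dim signal itself, whichever was larger. No between-array test was possible with 1 array per condition, and SAM, which the methods name, was not run. Errors of ratios combine the scanner errors of both spots. Precision is limited by the number of arrays.

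The members, the pathway list, the markers, the motifs and the rule for named genes were chosen with earlier results of these data known. All member probes are named, and up to 20 pathway genes with a probe at least 2-fold from the control at any time. Some of these genes are counted but not reported here by name. Alternatives were median, quantile, detected-probe, spike-in and no scaling, normexp with offset 50 (limma 3.58.1, R 4.3.3), the deposited table, detection required on both arrays or not at all, and thresholds of 1.5-fold and 3-fold. Python 3.11.15, numpy 2.4.6 and pandas 2.3.3 were used. On simulated data for 4 h over the control, 200 of 200 probes changed 4-fold among 39429 were recovered. These were bright detected probes, and the added noise was smaller than the scanner error of a ratio. The recovery therefore does not cover dim probes such as that of *Id4*.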

Additional observations from a re-analysis of the deposited data

How the results depend on the processing

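No member log2 ratio of at least 2-fold changed direction under the alternatives run. Of the counts of member probes past the threshold, that of lower probes at 20 h went from 7 to 4 without scaling, where *Smad6*, *Smad7* and the second *Tgfb2* probe lay at -0.9985, -0.99 and -0.70. It was 6 with median or spike-in scaling and with normexp, each time without the second *Tgfb2* probe. The count of lower probes at 4 h went from 3 to 4 under all 5 scaling alternatives, with the first *Tgfb2* probe, and to 2 with normexp, where *Id4* lay at -0.75. With a threshold of 3-fold, 3 probes were lower at 20 h and 3 at 32 h. With 1.5-fold, 1 probe was higher at 4 h (*Id2*) and 1 differed between 20 h and 32 h (*Id1*). The pathway median at 4 h went from -0.0062 to -0.37 with median scaling, -0.41 with the spike-in probes, -0.40 without the spike-in probe furthest from the others (added after the data were seen) and -0.29 without scaling. At 20 h it went from -0.15 to 0.18 without scaling, and was 0.053 with the spike-in probes. These settings shifted the median of all probes too, at 4 h from 0.17 to -0.19, -0.23, -0.23 and -0.11, and at 20 h from -0.0034 to 0.33. With 1 array per condition no replicate could be left out. *Id4* at 32 h and *Bambi* on every array were limited by their signal over background.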

Other observations

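The genes most like *Id1* and *Smad7* were taken as those with the smallest Euclidean distance of the 3 log2 ratios over the control. They were sought among 11832 other named genes detected on all 4 arrays, with the brightest probe of each gene. For *Tgfb2* this was the second probe, so its ranks do not hold for the first, whose ratios differed. All 3 ratios share the control array. For *Id1* these were *Iqcf4* (distance 0.20), *Cspg4* (0.26) and *Dlk1* (0.37), against a median distance of 2.90. *Dlk1* encodes a membrane protein known as an inhibitor of fat cell differentiation and had log2 ratios of -0.26, -1.74 and -2.59 at 4 h, 20 h and 32 h. *Cspg4* encodes the NG2 proteoglycan and had -0.29, -1.65 and -2.48. *Id3* was at rank 8 (0.59), *Smad7* at rank 49, *Id2* at rank 155, *Tgfb2* at rank 272, *Smad6* at rank 1017, *Tgfb1* at rank 2692 and *Tgfb3* at rank 4574. For *Smad7* they were *Ifna11* (0.060), *Flrt3* (0.175) and *Igfbp4* (0.18), against a median of 1.97. *Id3* was at rank 73, *Tgfb2* at rank 147, *Id2* at rank 178, *Id1* at rank 359, *Tgfb1* at rank 2106, *Smad6* at rank 9597 and *Tgfb3* at rank 9844. *Igfbp4*, an insulin-like growth factor binding protein, had 0.18, -1.27 and -1.06. These distances are a description of 4 arrays, without a test.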
